A study of Mus musculus with 39 samples.

Results

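The comparison set 5 P7 Neurod1 TRAP libraries against 4 P7 Math1 TRAP libraries, 9 of the 39 samples in the series, chosen by the driver and the age that the sample titles give. All 9 are polysomal RNA from granule cells of the mouse cerebellum at postnatal day 7, strain C57Bl/6J by label. TRAP, translating ribosome affinity purification, pulls down ribosomes that carry an EGFP-tagged L10a protein, so the RNA comes mainly from cells in which the driver of the transgene is active. The Math1 libraries came from granule cell progenitors (GCPs) isolated from Tg(Atoh1-Egfp-L10a) mice, Math1 being the older name of Atoh1, and the Neurod1 libraries from whole cerebellar lysates of Tg(NeuroD1-Egfp-L10a) mice. Driver, mouse line and starting material therefore changed together and cannot be told apart, and 1 transgenic line stands for each driver. Beside them are given 1 library of total cerebellar RNA at P7 (the input), and 2 libraries of freshly isolated GCPs from P6 to P7 mice without a pull-down (DIV0) with 2 of the same preparation after 2 days in culture with DMSO (DIV2 DMSO), 4 culture libraries that share no sample with the main comparison.

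Granule cells are the most numerous neurons of the brain. Their progenitors sit in the outer part of the external granule layer, where Atoh1, a basic helix-loop-helix activator, and Sonic hedgehog released by Purkinje cells keep them dividing. Progenitors then leave the cell cycle, take up Neurod1 as a main driver of differentiation, grow parallel fibres, and migrate inward to form synapses. At the age sampled here division and differentiation run side by side in the same layer.

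Total counts were 12084136 to 29970095 per Math1 library and 23940339 to 37954872 per Neurod1 library, and levels below are CPM, counts scaled to a common library total and by TMM, edgeR's correction for library composition. Differences are log2 values, Neurod1 minus Math1, from edgeR's quasi-likelihood test with their standard error and the p adjusted by the Benjamini-Hochberg method over 14759 genes; a gene is called where that p is under 0.05. The background was high: 72.4% of all genes tested were called, 36.5% higher and 35.8% lower, and in 58.2% the groups did not overlap. For that reason calls of at least 2-fold are given as well, which 16.1% of genes met upward and 10.3% downward. The Math1 libraries fell into the pairs 1 and 2, and 3 and 4: after log2(CPM + 1), 0.488% and 0.535% of genes lay 2-fold or more apart within a pair and 1.54% to 1.8% between pairs. Of the 10682 genes called, 8298 (77.7%) were also called with the same sign against each pair alone. Nothing in the labels names the pairs as batches, or says whether replicates are separate animals, so the p-values measure the spread between libraries. That spread was estimated over 19 TRAP libraries, Neurod1 libraries of P12 and P21 among them. The 4 Math1 libraries entered as separate replicates in spite of their pairs. A fit of the 2 groups alone called 9875 genes.

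The driver genes separated the groups, in the direction of the labels. Atoh1 stood at 993, 1413, 616 and 696 CPM in Math1 replicates 1 to 4 and at 23.5, 21.7, 21, 27.4 and 26.7 CPM in Neurod1 replicates 1 to 5, a log2 difference of -5.29 ± 0.26 (SE, adjusted p = 1.28e-12). No Neurod1 library came near a Math1 library for this gene. Isolated GCPs without a transgene had 45.4 CPM of Atoh1 (mean of 2) and the input 23.3 CPM, so all 4 Math1 libraries stood above the DIV0 level as well. Whether the transgenes carry transcribed Atoh1 or Neurod1 sequence is not given in the labels. Neurod1 moved the other way and less: 1102, 1142, 1323 and 1338 CPM in the Math1 libraries against 3003, 2804, 2828, 2582 and 2734 CPM in the Neurod1 libraries (log2 difference 1.17 ± 0.09, adjusted p = 9.52e-11). The Math1 libraries sat beside DIV0, at 1253 CPM, and the input had 1455 CPM. The tagged protein's own gene, Rpl10a, reached 1133 to 2039 CPM in the Math1 libraries and 2045 to 2415 CPM in the Neurod1 libraries, against 802 CPM in the input and 240 CPM in DIV0; reads of the transgene and of the endogenous gene cannot be told apart.

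**Figure D1:**
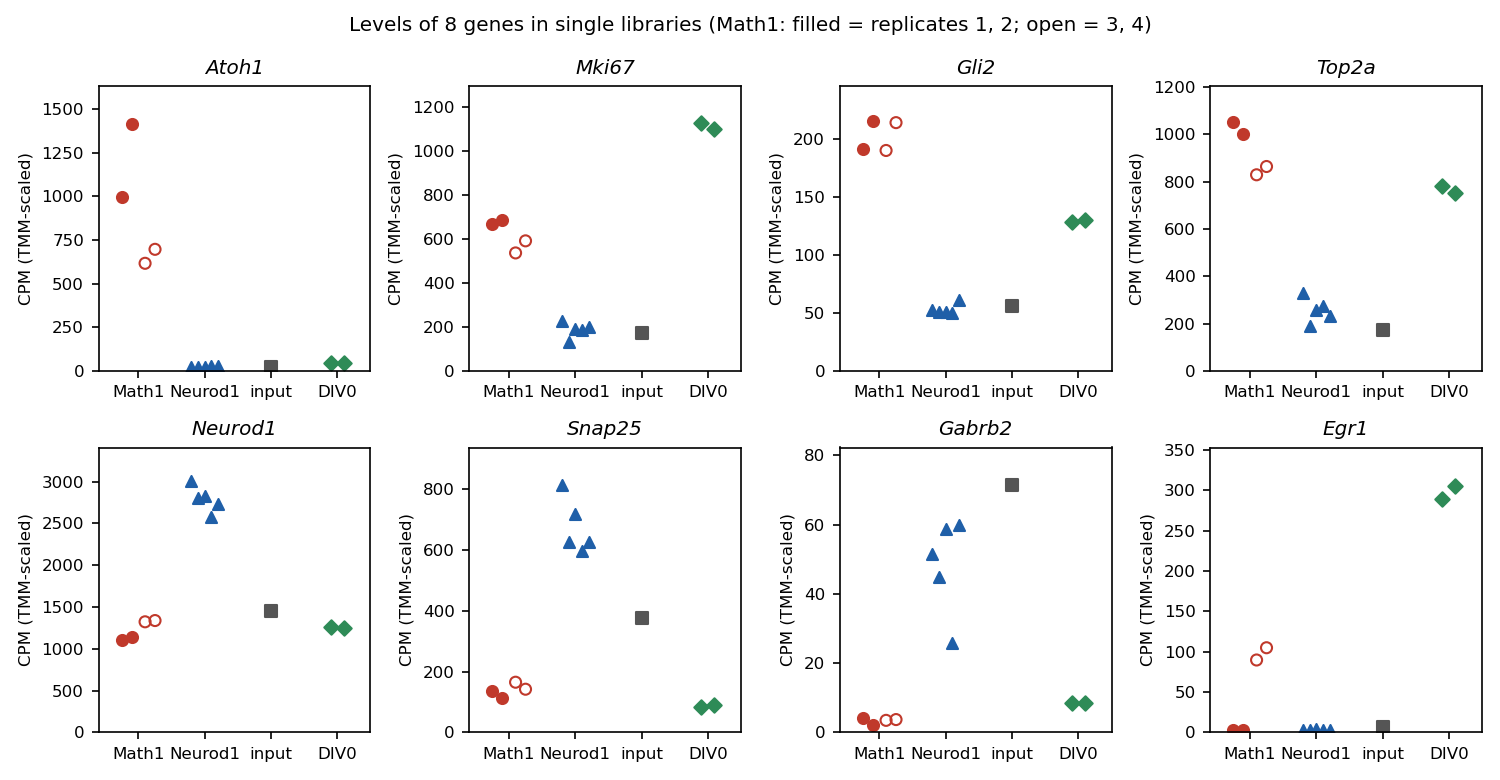
Levels of 8 genes in single libraries, in CPM on linear axes that start at 0: Math1 replicates 1 and 2 (filled circles) and 3 and 4 (open circles), the 5 Neurod1 libraries, the P7 input and the 2 DIV0 libraries. Atoh1, Mki67, Gli2 and Top2a are high in all 4 Math1 libraries, Neurod1, Snap25 and Gabrb2 in all 5 Neurod1 libraries, and Egr1 in Math1 replicates 3 and 4 and in DIV0.

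Hedgehog signalling genes were lower in the Neurod1 libraries at almost every step of the pathway within the responding cell. Of 19 measured members, 15 were lower, 13 of them 2-fold or more, and 3 were higher, with a median log2 difference of -1.25 against 0.01 over all genes. The ligand Shh itself was close to the floor, at 0.204, 0.036, 0 and 0.084 CPM in the Math1 libraries and 0.369, 0.504, 0.563, 0.649 and 0.727 CPM in the Neurod1 libraries. It was higher in every Neurod1 library (2.58 ± 0.48, adjusted p = 5.25e-05). Since so low a gene could pass the filter through the Neurod1 libraries alone, this call, 1 of the 3 higher, supports nothing. The input, which holds the Purkinje cells, had 2.5 CPM of Shh. The other ligands, Ihh and Dhh, were too low to be tested between the pull-downs.

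Among receptors and coreceptors, Ptch1, the receptor that holds Smo in check and is itself a target, was at 150 to 170 CPM in the Math1 and 75.4 to 98.6 CPM in the Neurod1 libraries (-0.92 ± 0.10). The ligand-binding coreceptors Boc (-1.79 ± 0.10) and Gas1 (-1.62 ± 0.14) differed more, while the signal transducer Smo fell by 1.31 ± 0.13. Cdon, another coreceptor, went the other way (0.94 ± 0.17, adjusted p = 3.65e-05) at 1.76 to 3.12 CPM in the Math1 and 3.59 to 5.08 CPM in the Neurod1 libraries. The decoy receptor Hhip was lower (-0.97 ± 0.26).

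All 3 Gli transcription factors were lower. Gli2, the main activator, measured 191, 215, 190 and 214 CPM in the Math1 libraries and 52.5, 50.5, 50.6, 50.0 and 61.2 CPM in the Neurod1 libraries (-1.95 ± 0.13, adjusted p = 1.21e-11), with no overlap and little spread within either group. Gli1, the pathway's classical target, fell by 1.42 ± 0.15 and Gli3, mostly a repressor, by 1.41 ± 0.15. Negative regulators inside the cell did not move as a block: Gpr161 (-1.25 ± 0.13) and Kif7 (-1.22 ± 0.15) were lower, Sufu measured 123 to 138 against 132 to 152 CPM (0.08 ± 0.07, adjusted p = 0.294), and Prkaca, the catalytic subunit of protein kinase A, was higher (0.98 ± 0.06). The 4 targets on the list were lower, Mycn by 1.33 ± 0.12, Sfrp1 by 1.19 ± 0.17, Ccnd1 by 1.90 ± 0.14 and Foxm1 by 1.03 ± 0.13. In culture, from DIV0 to DIV2, 19 members were tested as well, with Ihh in place of Shh. Of these 14 fell and the spread among members was wider. Gli1 fell by 8.19 log2 units there and Gli2 by 5.05, whereas Boc changed by -0.07 (adjusted p = 0.288).

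Most cell cycle genes measured were lower in the Neurod1 pull-down, where they were still detected. Mki67, the proliferation antigen, was at 668, 686, 537 and 592 CPM in the Math1 and 228, 131, 189, 185 and 198 CPM in the Neurod1 libraries (-1.75 ± 0.14, adjusted p = 3.68e-10). DIV0 had 1115 CPM and the input 173 CPM, so the Neurod1 pull-down held about as much Mki67 as whole cerebellum. In bulk RNA, fewer cycling cells and less of this RNA per cell cannot be told apart. Of the 16 G1 genes measured, 13 were lower and 1 higher, with a median of -0.94. Among them were the D cyclins Ccnd1, with 377, 464, 239 and 257 CPM in the Math1 libraries and 76.8 to 105 CPM in the Neurod1 libraries, and Ccnd2, at 1258 to 1765 CPM against 512 to 626 CPM, and their partner kinase Cdk6 (-1.92 ± 0.15). Among the E2F factors E2f7, a repressor made during S phase, fell by 1.61 ± 0.12. Rb1, the retinoblastoma protein that restrains E2F, was the member called higher (0.36 ± 0.06).

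Of 11 inhibitors of the cell cycle tested, 5 were higher, 1 of them 2-fold or more, and 4 were lower, shares near those of all genes (36.5% and 35.8%). Cdkn1b, which encodes p27, the inhibitor best known for granule progenitor exit, was modestly higher: 377, 399, 375 and 385 CPM against 562, 484, 508, 478 and 463 CPM (0.36 ± 0.06, adjusted p = 8.81e-06). Cdkn1a (0.74 ± 0.11), Cdkn1c (0.65 ± 0.15), Cdkn2d (0.57 ± 0.07) and the antiproliferative gene Btg1 (1.02 ± 0.13) were also higher. Cdkn2c, a G1 kinase inhibitor that is itself expressed in cycling cells, was lower (-0.77 ± 0.10), as were Btg2, Gadd45g and Tob2. These 3 differed between the Math1 pairs: against replicates 1 and 2 alone their log2 differences were -0.17, -0.22 and 0.02, against 3 and 4 alone -0.79, -0.74 and -0.67. The call of Tob2 was also lost without Math1 replicate 3 or 4 or Neurod1 replicate 2 or 4 (adjusted p = 0.128, 0.173, 0.079 and 0.0562), and that of Btg2 without Math1 replicate 4 (0.0747).

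All 24 genes of DNA licensing and replication were lower, 20 of them 2-fold or more (median -1.34, range -2.38 to -0.30). Pole, the catalytic subunit of the leading-strand polymerase, was the most different at 85.3, 85.9, 76.8 and 73.8 CPM against 16, 11.4, 14.6, 18.2 and 18 CPM (-2.38 ± 0.12, adjusted p = 3.58e-13). Mcm7, a subunit of the replicative helicase, was at 359 to 492 CPM in the Math1 and 123 to 158 CPM in the Neurod1 libraries (-1.53 ± 0.10). Cdt1, which loads that helicase, fell by 1.43 ± 0.08, and Lig1, which joins Okazaki fragments, by 1.46 ± 0.09. Math1 replicates 1 and 2 were above 3 and 4 over this list, with summed levels of 4880 and 5020 CPM against 3690 and 3650 CPM, and every one of the 4 was above the highest Neurod1 sum, 1820 CPM.

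The mitosis and kinetochore genes behaved alike: 22 of 22 were lower, 20 of them 2-fold or more (median -1.50, range -1.90 to -0.75). Top2a, which untangles chromosomes, was at 1051, 1000, 829 and 864 CPM against 330, 188, 257, 275 and 234 CPM (-1.88 ± 0.12, adjusted p = 5.5e-12). Cenpe, a kinetochore motor, fell by 1.90 ± 0.11, the spindle motor Kif11 by 1.79 ± 0.12, and the kinetochore protein Cenpf by 1.86 ± 0.10. DNA repair genes followed, with 19 of 20 lower and 15 at least 2-fold (median -1.26). Brca1, of homologous recombination, fell by 1.58 ± 0.11. In all 3 lists no member was called higher, where 36.5% of all genes were.

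Because these genes move together, the letters of their promoters are shown. RefSeq promoters on GRCm38.p6, from 250 bases before to 50 after each annotated start, were searched on both strands for 11 short motifs. TTTGAA, the core of the cell cycle gene homology region bound by the DREAM and MuvB complexes, was in 13 of 19 promoters of the mitosis list (68.4%) and in 17.9% of all 32851 promoters, and CCAAT, bound by NF-Y, in 15 of 19 (78.9%) and 37.4%. The replication list held CCAAT in 15 of its 24 promoters, which belong to 20 genes (62.5%), and TTTGAA in 3 (12.5%). It held the E2F letters GCGGGAA in 9 of 24 (37.5%, against 4.6% of all) and TTTGGCGC in 5 of 24 (20.8%, against 0.514%). Neither of the E2F motifs was in any of the 19 mitosis promoters. CCAAT was not particular to the lowered cell cycle lists. It was in 13 of 16 promoters of the cholesterol synthesis list (81.2%). The GABA-A receptor and chloride transport list, mostly higher in the Neurod1 libraries, held it in 9 of 15. Other lists lay below the share of all promoters, such as the synapse scaffold list with 4 of 22 (18.2%). The 9-letter GLI site GACCACCCA was in 0 of 16 hedgehog promoters and in 0.253% of all. The motifs were not required to be apart, and a match is a description and not a site. The printed genes are those of each list with the lowest adjusted p whose 250 upstream bases hold the letters. Promoters on 1 chromosome were left out of this choice. For Mcm7 the annotated start used lies inside the gene's span. The 2 mitosis promoters below have TTTGAA and CCAAT, or their reverse complements, in capitals, and the replication promoters 1 E2F motif each, GCGGGAA for Mcm7 and TTTGGCGC for Mcm5, on either strand; each is written 5′ to 3′ on the gene's strand and stops at the start site.
Top2a (chr11:99024190-99024439, minus strand): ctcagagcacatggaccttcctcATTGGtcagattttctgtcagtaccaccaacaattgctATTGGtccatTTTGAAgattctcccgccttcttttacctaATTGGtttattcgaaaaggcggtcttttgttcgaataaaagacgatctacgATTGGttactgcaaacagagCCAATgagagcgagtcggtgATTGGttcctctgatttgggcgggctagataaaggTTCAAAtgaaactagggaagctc
Kif11 (chr19:37376132-37376381, plus strand): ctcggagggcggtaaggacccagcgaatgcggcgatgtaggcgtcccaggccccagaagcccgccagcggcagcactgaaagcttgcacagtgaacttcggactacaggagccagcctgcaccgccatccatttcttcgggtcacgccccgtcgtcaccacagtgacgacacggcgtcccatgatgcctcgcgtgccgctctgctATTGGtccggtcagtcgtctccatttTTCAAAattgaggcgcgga
Mcm7 (chr5:138171267-138171516, minus strand): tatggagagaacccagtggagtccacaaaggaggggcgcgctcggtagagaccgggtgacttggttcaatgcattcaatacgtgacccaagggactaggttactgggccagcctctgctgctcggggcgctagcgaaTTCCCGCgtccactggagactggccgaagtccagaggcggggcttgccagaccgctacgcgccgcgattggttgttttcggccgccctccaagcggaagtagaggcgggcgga
Mcm5 (chr8:75109259-75109508, plus strand): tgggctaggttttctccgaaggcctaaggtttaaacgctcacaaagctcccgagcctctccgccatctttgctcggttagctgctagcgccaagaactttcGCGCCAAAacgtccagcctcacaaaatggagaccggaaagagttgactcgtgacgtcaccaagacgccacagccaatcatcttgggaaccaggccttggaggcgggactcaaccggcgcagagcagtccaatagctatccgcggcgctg

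Of 8 basic helix-loop-helix factors of the neuronal lineage, Atoh1 and Neurod1 among them, 3 were higher and 1 lower. Of all genes tested, 36.5% were higher and 35.8% lower. Neurod2, a relative of Neurod1 in maturing neurons, was at 196, 183, 248 and 218 CPM in the Math1 and 588, 603, 575, 534 and 505 CPM in the Neurod1 libraries (1.39 ± 0.09, adjusted p = 6.54e-12). Bhlhe22 was higher as well (0.82 ± 0.07), while Neurod4, Neurod6, Nhlh1 and Nhlh2 gave log2 differences of 0.10, 0.00, -0.29 and -0.05 with adjusted p from 0.0921 to 0.995; Nhlh1 was called lower without Math1 replicate 1 or 2 (-0.41 in each case), and Nhlh1 and Nhlh2 were both called lower against Math1 replicates 3 and 4 alone (-0.60 and -0.23). Their common partners, the E proteins Tcf3, Tcf4 and Tcf12, were all lower (-0.92, -0.52 and -0.48). Id4, 1 of 4 Id proteins that sequester E proteins, rose by 1.64 ± 0.19 and was higher still in the input, at 87.3 CPM.

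In the Notch group 7 of 11 members were lower and 2 higher, where 35.8% and 36.5% of all genes were. Dll3, an inhibitory Notch ligand, was at 25.6, 33.5, 34.3 and 29.3 CPM in the Math1 and 2.13 to 4.31 CPM in the Neurod1 libraries (-3.20 ± 0.17), the ligand Jag1 fell by 1.78 ± 0.20 and the receptors Notch1 and Notch2 by 1.00 ± 0.19 and 1.33 ± 0.15. Hey1, a repressor downstream of Notch, had 269 to 395 CPM against 147 to 187 CPM (-1.03 ± 0.09). The targets Hes1 and Hes5 were low in both groups, at 1.66 to 5.03 CPM, and were not called (adjusted p = 0.886 and 0.973). Dll1 rose by 1.23 ± 0.24 and Jag2 by 0.87 ± 0.16.

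The BMP ligands changed in opposite directions. Bmp6 was at 2.33, 1.66, 1.68 and 1.01 CPM against 19.5, 22.3, 26.7, 22.7 and 25.3 CPM (3.72 ± 0.18, adjusted p = 1.86e-13) and Bmp5 behaved likewise (3.28 ± 0.22). Bmp7, at 6.33 to 8.94 CPM in the Math1 and 0.992 to 2.27 CPM in the Neurod1 libraries, fell by 2.20 ± 0.19, and so did the BMP antagonist Chrd (-1.69 ± 0.06, with all 4 Math1 libraries between 86.4 and 93.9 CPM). Over all genes tested 36.5% were higher and 35.8% lower. Over the 13 BMP genes 5 were higher and 6 lower. Of 11 Wnt genes 3 were higher and 4 lower: the ligand Wnt7a rose by 1.94 ± 0.25, and Ctnnb1, which encodes beta-catenin, was at 813 to 842 CPM in the Math1 and 352 to 405 CPM in the Neurod1 libraries (-1.10 ± 0.07).

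Most transcription factors of the granule lineage differed by less than 2-fold. Of 27 tested 10 were higher and 15 lower, 3 and 1 of them by 2-fold or more. The shares over all genes were 36.5% and 35.8%, and 16.1% and 10.3% by 2-fold or more. Pax6 for instance measured 573 to 612 CPM and 473 to 506 CPM (-0.29 ± 0.05). Among those lower were Bcl11a (-0.99 ± 0.09), Sox11 (-0.99 ± 0.10), Barhl1, an Atoh1 target (-0.89 ± 0.08), and Nfic (-0.36 ± 0.06). Etv1, a factor of maturing granule cells, rose by 1.85 ± 0.14 and Mef2a, which is linked to synapse maturation, by 1.50 ± 0.13. Zic1, Zic2, Zic4 and Zic5 were higher by 0.50 to 0.83.

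**Figure D2:**
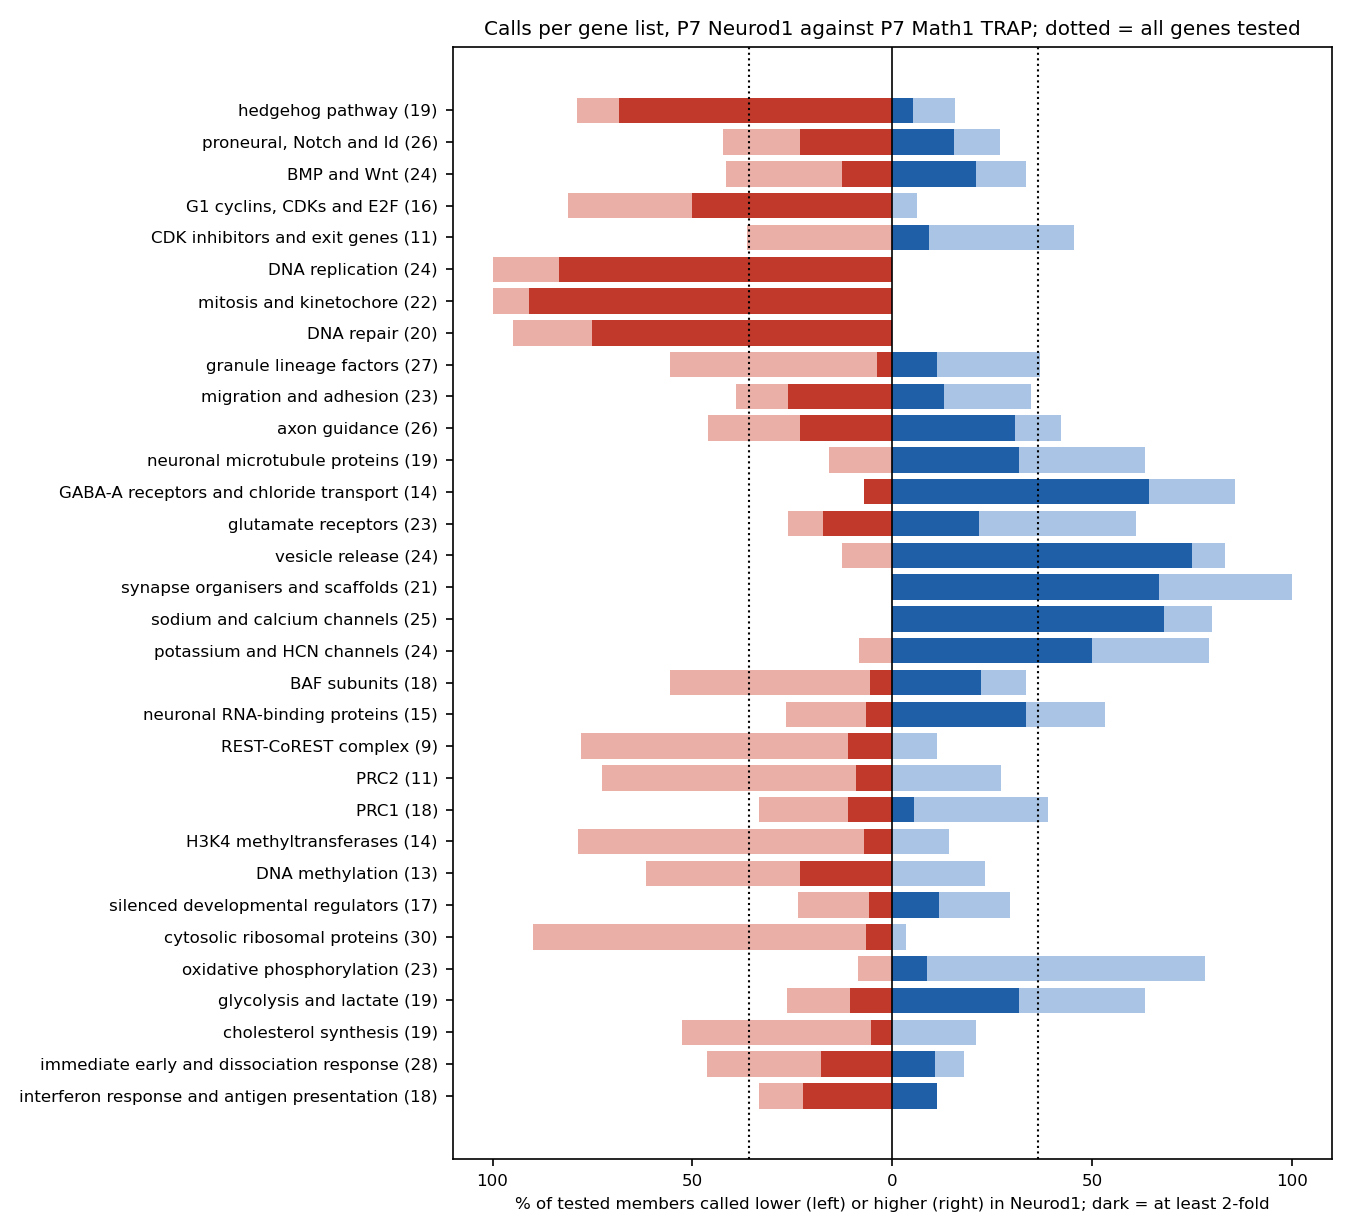
Share of tested members called higher (right) and lower (left) in the Neurod1 libraries for each gene list, with the number tested beside the list name; the darker part of a bar is the share that was at least 2-fold. Dotted lines give the share over all genes tested, 36.5% higher and 35.8% lower. Replication and mitosis lists reach 100% on the lower side and the synapse scaffold list on the higher side.

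Inhibitory receptor genes were higher in the Neurod1 libraries. GABA-A receptors are chloride channels of 5 subunits, whose makeup changes as granule cells mature and whose effect depends on the chloride that transporters keep in the cell. Of 12 subunits tested 11 were higher, 8 of them 2-fold or more (median 2.19). Gabra6, the subunit that marks mature granule cells, was at 3.67, 1.84, 0 and 0 CPM in the Math1 libraries and at 68.8, 45.2, 61.5, 28.7 and 56.8 CPM in the Neurod1 libraries. Math1 replicates 3 and 4 held no count of it, which with a floor of 3 counts over both makes the Neurod1 mean at least 476-fold higher; replicates 1 and 2 held 141 counts together. Gabrd, its partner outside the synapse, rose by 4.76 ± 0.35 and Gabrb2 by 3.84 ± 0.23.

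The 2 chloride cotransporters moved in opposite directions. Slc12a5, which encodes the extruder KCC2, was at 7.76, 1.58, 2.06 and 1.43 CPM in the Math1 and 48.9, 53.7, 62.7, 36.3 and 64.0 CPM in the Neurod1 libraries (3.92 ± 0.33, adjusted p = 4.25e-09). Slc12a2, the importer NKCC1, was at 64.9, 59.1, 78.8 and 69.8 CPM against 24.2, 24.6, 31.8, 24.8 and 30.5 CPM (-1.34 ± 0.12, adjusted p = 1.15e-09). Neither gene overlapped between the groups. In culture Slc12a5 rose by 5.17, whereas Slc12a2 changed by -0.01 (adjusted p = 0.812).

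Glutamate receptor genes were more mixed: 14 of 23 were higher and 6 lower, 5 and 4 of them by 2-fold or more. Grm5, a metabotropic receptor, went from 3.55, 2.23, 3.42 and 1.52 CPM to 45.1, 51.1, 60.6, 44.3 and 57.6 CPM (4.22 ± 0.17, adjusted p = 1.12e-14), and Grm4, the presynaptic receptor of parallel fibres, rose by 3.70 ± 0.27. Grin1, the obligatory NMDA receptor subunit, rose by 2.47 ± 0.18. Grin2c, the NMDA subunit of mature granule cells, was higher in the Math1 libraries, at 15.8, 15.1, 10.9 and 10.4 CPM against 2.70, 1.82, 2.81, 0.725 and 4.28 CPM (-2.45 ± 0.25, adjusted p = 2.57e-08). DIV0 had 1.22 CPM of Grin2c and the input 2.24 CPM, both within the Neurod1 range, and in culture the gene rose by 1.98.

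Genes of vesicle release were among the most uniformly higher, with 20 of 24 higher, 18 of them 2-fold or more (median 1.88). Vamp2, the vesicle SNARE, was at 176, 143, 205 and 178 CPM against 1103, 1061, 961, 916 and 895 CPM (2.48 ± 0.09, adjusted p = 2.54e-15). Its partner Snap25 was at 114 to 165 CPM against 598 to 815 CPM (2.27 ± 0.10), and the fusion clamp Cplx1 rose by 2.09 ± 0.07. The 3 lower members included both giant active-zone scaffolds, Pclo (-0.90 ± 0.11) and Bsn (-0.64 ± 0.10), which rose in culture by 1.79 and 1.13. Postsynaptic scaffolds and synapse organisers were higher in 21 of 21 cases, 14 at least 2-fold. Shank1 rose by 2.99 ± 0.11, Dlg4, which encodes PSD-95, by 1.99 ± 0.08 and Shank3 by 1.32 ± 0.08.

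Ion channel genes followed. Of 25 sodium and calcium channel genes 20 were higher, 17 of them 2-fold or more, and none was lower (median 1.77). Scn2a, an axonal sodium channel, was at 8.70, 4.68, 6.90 and 5.82 CPM against 41.9, 37.9, 45.6, 35.6 and 46.1 CPM (2.64 ± 0.14). Fgf12 and Fgf14, intracellular partners of these channels, rose by 2.80 ± 0.08 and 3.68 ± 0.16. Of 24 potassium and HCN channel genes 19 were higher and 2 lower (median 1.01). Kcnk3, a leak channel, rose by 4.15 ± 0.24, and the subunit Kcnd3 fell by 0.47 ± 0.12 although it rose in culture by 1.43.

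Subunits of the BAF chromatin remodelling complex that are exchanged when neurons form changed in that order. The 3 progenitor forms were lower and the 4 neuronal forms higher. Actl6a was at 210, 217, 149 and 148 CPM against 84.1, 80.2, 82.5, 89.2 and 86.6 CPM (-1.12 ± 0.10), and its neuronal counterpart Actl6b at 52.2, 58.1, 61.0 and 64.1 CPM against 114, 121, 112, 104 and 107 CPM (0.91 ± 0.06). Phf10 and Ss18 were lower by 0.49 ± 0.08 and 0.28 ± 0.06, and Dpf1, Dpf3 and Ss18l1 higher by 1.50 ± 0.12, 1.40 ± 0.12 and 1.17 ± 0.10. In the core, Smarca4 was lower (-0.79 ± 0.09) and its alternative Smarca2 higher (0.90 ± 0.10), and Smarcd3 had the widest difference (2.67 ± 0.17).

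Genes of Polycomb repressive complex 2, which methylates histone H3 at lysine 27, were lower for 8 of 11 members and higher for 3. Ezh2, the enzyme of dividing cells, was at 267, 278, 183 and 197 CPM in the Math1 and 114, 105, 104, 121 and 113 CPM in the Neurod1 libraries (-1.07 ± 0.10, adjusted p = 5.85e-09). Ezh1, the enzyme of non-dividing cells, was at 27.1, 25.5, 27.7 and 29.8 CPM against 38.3, 37.3, 32.6, 34.5 and 32.7 CPM (0.34 ± 0.07, adjusted p = 0.000127). Without correction for length the levels of the 2 genes cannot be compared with each other. Eed fell by 0.56 ± 0.07 and Suz12 by 0.29 ± 0.08, and the accessory subunits Jarid2 and Phf1 rose by 0.38 ± 0.07 and 0.83 ± 0.09. The demethylases of the same mark, Kdm6a and Kdm6b, differed by -0.01 ± 0.16 and 0.05 ± 0.08 (adjusted p = 0.949 and 0.569).

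Of 18 genes of Polycomb repressive complex 1, 7 were higher and 6 lower, shares near the 36.5% and 35.8% of all genes. Cbx2, a reader subunit of dividing cells, fell by 1.35 ± 0.10, and Cbx6, Rybp and Yaf2 rose by 0.90 to 1.09. Of 14 genes of H3 lysine 4 methylation 11 were lower and 2 higher (median -0.54). Kmt2d, an enhancer methyltransferase, was at 101 to 119 CPM against 36.9 to 47.7 CPM (-1.37 ± 0.10), and in culture it changed by -0.06 (adjusted p = 0.355). Of 13 genes of DNA methylation 8 were lower: the maintenance pair Dnmt1 and Uhrf1 fell by 1.38 ± 0.10 and 1.64 ± 0.15, and the de novo enzyme Dnmt3a was higher by 0.29 ± 0.11, a call lost without Math1 replicate 3 or 4 or Neurod1 replicate 1 (adjusted p = 0.0941, 0.0541 and 0.0795). Of the REST complex, which silences neuronal genes outside neurons, 7 of 9 genes were lower, Rest itself at 1.35 to 4.36 CPM against 0.603 to 1.16 CPM (-1.58 ± 0.30).

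Developmental regulators that are silent in this lineage were mostly too low to test: 17 of the 32 passed the filter, and since a gene could pass through 1 group alone the count of calls supports nothing. Pax2 and Lhx5, interneuron factors, stood at 3.04 to 5.22 and 3.85 to 6.45 CPM in the Math1 libraries and at 12.4 to 21 and 13.7 to 23.4 CPM in the Neurod1 libraries, with 40.1 and 34.7 CPM in the input. Of 15 genes of splicing and other RNA-binding proteins 8 were higher and 4 lower: Ptbp1, the repressor of neuronal exons, fell by 1.43 ± 0.10 and its neuronal relative Ptbp2 by 0.65 ± 0.07, whereas Rbfox1, Elavl4 and Rbfox3, the antigen NeuN, rose by 1.76 ± 0.10, 1.46 ± 0.08 and 1.34 ± 0.09.

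Guidance and adhesion genes were called in both directions. Of 26 axon guidance genes 11 were higher and 12 lower, where 36.5% and 35.8% of all genes were. Dcc, the netrin receptor, was at 210, 246, 224 and 224 CPM against 37.0, 39.7, 44.0, 37.4 and 54.5 CPM (-2.43 ± 0.12, adjusted p = 1.91e-13), and its ligand Ntn1 fell by 2.11 ± 0.17. Plxnb2, a semaphorin receptor of granule progenitors, fell by 2.07 ± 0.14, with 803 to 972 CPM in the Math1 libraries. Slit3 and Sema3a, which are secreted cues, rose by 3.75 ± 0.21 and 2.05 ± 0.12. Cxcr4, the receptor for the meningeal chemokine that holds progenitors at the surface, was at 41.5, 50.2, 32.3 and 27.4 CPM against 4.37, 4.93, 4.70, 5.65 and 7.95 CPM (-2.81 ± 0.21). Itgb1, a laminin-binding integrin, fell by 1.47 ± 0.12, and Dab1, the reelin adaptor, rose by 1.70 ± 0.11. Among microtubule proteins 12 of 19 were higher and 3 lower: Stmn2, at 664 to 948 CPM against 2682 to 3308 CPM, rose by 1.94 ± 0.09 and Tubb2a by 1.69 ± 0.08, and the general beta-tubulin Tubb5 fell by 0.50 ± 0.06.

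Of 30 cytosolic ribosomal protein genes 27 were lower and 1, Rpl10a, higher (median -0.58); Rpl10a was not called against Math1 replicates 1 and 2 alone (0.17, adjusted p = 0.315). Rps2 was at 1253, 1408, 1199 and 1221 CPM against 499, 610, 470, 618 and 524 CPM (-1.24 ± 0.12). Both groups lay above DIV0 for the list, whose summed level was 29000 to 35200 CPM in the Math1, 19800 to 23200 CPM in the Neurod1 and 10000 to 10200 CPM in the DIV0 libraries. Oxidative phosphorylation genes were higher in 18 of 23 cases with a median of only 0.32. Of 19 glycolysis and lactate genes 12 were higher and 5 lower, 6 and 2 of them by 2-fold or more: Eno2, the neuronal enolase, was at 10.0, 5.47, 4.90 and 7.50 CPM against 193, 149, 157, 132 and 147 CPM (4.45 ± 0.16, adjusted p = 2.54e-15), and Pfkp rose by 2.47 ± 0.12. Cholesterol synthesis genes were lower in 10 of 19 cases and higher in 4, whereas 18 of 19 rose in culture.

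Immediate early genes, which are induced within minutes by activity or by handling of tissue, separated the Math1 pairs from each other. Egr1 was at 2.57 and 2.81 CPM in Math1 replicates 1 and 2, at 89.8 and 105 CPM in 3 and 4, and at 2.68 to 4.26 CPM in the Neurod1 libraries. The first pair sat with the Neurod1 libraries and the second far above them, so the log2 difference was 0.32 against the first pair and -4.85 against the second (-3.87 ± 0.86 with all 4). Fos, at 3.39, 1.95, 50.1 and 42.9 CPM in the Math1 libraries, likewise gave 1.91 and -2.23, and was not called with all 4 (-1.24, adjusted p = 0.139), but was called lower without replicate 1 or 2 (adjusted p = 0.0446 and 0.0281). Of 21 immediate early genes 2 were higher and 9 lower with all 4 Math1 libraries, 7 and 6 against replicates 1 and 2 alone, and 1 and 9 against 3 and 4 alone, where 69.8% and 66.0% of all genes were called. DIV0 had 298 CPM of Egr1, and all 21 genes fell in culture. Ctse, a protease, split the other way, with 2110 and 906 CPM in replicates 1 and 2, 139 and 149 CPM in 3 and 4, and 183 to 254 CPM in the Neurod1 libraries. Its log2 difference of -1.91 was -0.85 without Math1 replicate 1 (adjusted p = 0.0917), and the call was also lost with the replicate number as a block (-1.52, adjusted p = 0.053) and in a fit of the 2 groups alone (-1.92, adjusted p = 0.052). In all, 90 genes were called with opposite signs against the 2 pairs.

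**Figure D3:**
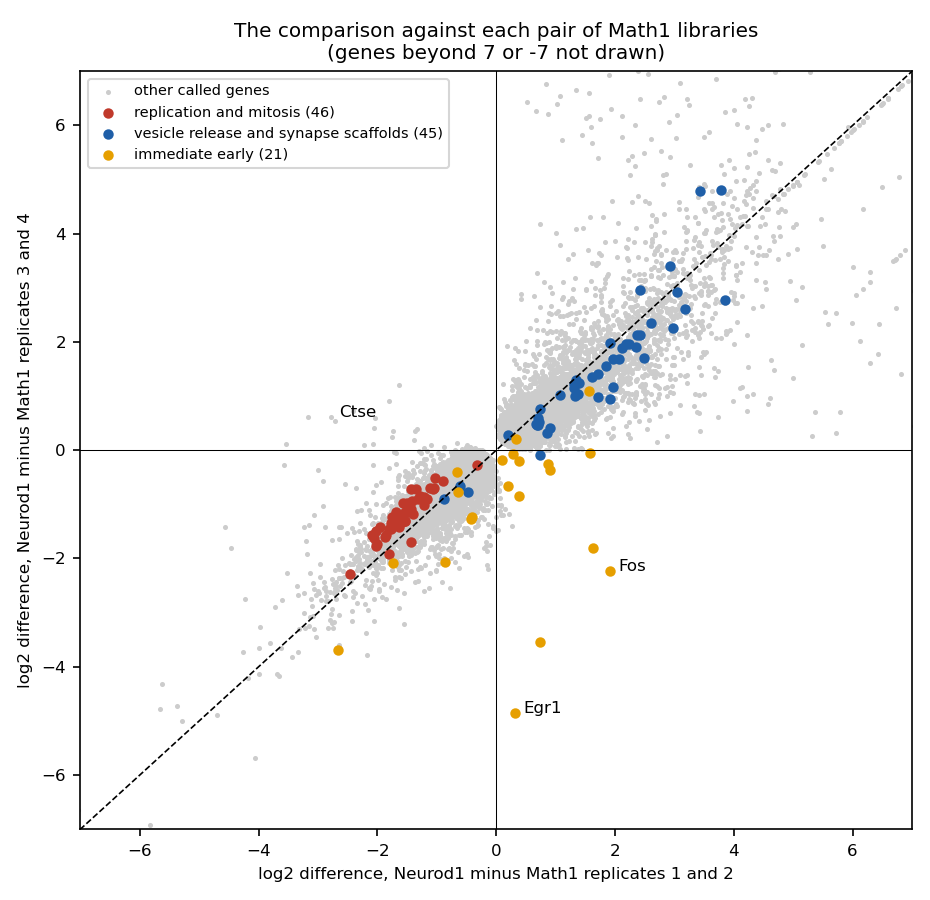
Log2 difference of each called gene against Math1 replicates 1 and 2 (horizontal) and against 3 and 4 (vertical), with replication and mitosis genes, synaptic genes and immediate early genes in colour; the dashed line marks equal values and genes beyond 7 log2 units are not drawn. Replication and mitosis genes lie below 0 on both axes and nearly all synaptic genes above 0, while immediate early genes spread along the vertical axis, Egr1 at 0.32 and -4.85.

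Markers of other cerebellar cell types were measured beside these groups. Purkinje cell markers were higher in the Neurod1 libraries for 10 of 12 genes and lower for 1, where 36.5% and 35.8% of all genes were. Their summed level was 70.1 to 95.5 CPM in the Math1, 289 to 399 CPM in the Neurod1 libraries and 2190 CPM in the input. Car8, a Purkinje cell protein, was at 3.10 to 8.61 CPM against 76.8 to 95.9 CPM, and 579 CPM in the input. Interneuron markers summed to 45.3 to 64.1 CPM against 97.1 to 153 CPM (541 CPM in the input). Of these 10 genes 6 were higher, among them Gad1 (3.0 ± 0.22), and 2 were lower, 1 of those at least 2-fold. The part of Purkinje cells and interneurons in the higher levels of GABA receptor, channel and synaptic genes was not tested. Gabra6 (28.7 to 68.8 CPM, input 25.4) and Vsnl1 (198 to 304 CPM, input 117) stood higher in every Neurod1 library than in the input. So did the summed vesicle release (5700 to 6760 CPM, input 4070) and synapse scaffold lists (3250 to 3810 CPM, input 2570). The sums of other lists did not. These were GABA-A subunits (250 to 411 CPM, input 370) and glutamate receptors (759 to 1080 CPM, input 1050). Sodium and calcium channels (1010 to 1280 CPM, input 1300) and potassium and HCN channels (1130 to 1480 CPM, input 1250) did not either.

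Unipolar brush cell markers were higher for 5 of 6 genes (107 to 118 CPM against 137 to 262 CPM, 125 CPM in the input). Astrocyte markers overlapped in sum, at 467 to 801 CPM against 478 to 718 CPM, with 3 of 12 higher and 6 lower, and oligodendrocyte markers did so at 309 to 403 CPM against 337 to 453 CPM, with 6 of 12 higher, 5 of them 2-fold or more, and 2 lower. Microglial markers were low, at 12.6 to 16.4 CPM against 8.49 to 25 CPM. Vascular and meningeal markers were lower for 11 of 13 genes and higher for 1, at 62.6 to 112 CPM against 24 to 41.5 CPM. DIV0 had 699 to 710 CPM of them. Kdr, the endothelial receptor, fell by 2.58 ± 0.26. Haemoglobin and other erythrocyte markers were 1.69 to 4.32 CPM against 13.5 to 39.6 CPM, with 221 CPM in the input. Xist and the Y-linked Ddx3y were both present in every Math1 library, while Neurod1 replicates 1, 4 and 5 had Xist at 11.0 to 13.9 CPM and no Ddx3y, and replicates 2 and 3 had Ddx3y at 44.5 and 52.1 CPM with Xist at 0.155 and 0.0402 CPM.

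The largest differences are given for genes of at least 10 CPM in the higher group whose groups did not overlap. Genes with provisional symbols (such as Gm or Rik), some of which rose more, were left out. Several of the genes that remained have near copies. Eno1b, a second copy of the enolase Eno1, was at 0.857, 0.793, 0.387 and 0 CPM against 245, 211, 232, 255 and 234 CPM (8.58 ± 0.19, adjusted p = 2.97e-18). Of its 75-base windows 80.6% also occur in other genes, and the sum of Eno1 and Eno1b was 665, 651, 527 and 532 CPM against 569, 483, 524, 555 and 513 CPM, which overlapped. The split between the copies is therefore uncertain. Ahcy, which hydrolyses S-adenosylhomocysteine, was at 101 to 133 CPM against 2.33 to 4.50 CPM (-5.16 ± 0.17), but shares 65.9% of its windows, and the sum with its copy Gm4737 was 137 to 187 CPM against 61.2 to 69.2 CPM, a ratio of 0.413 with no overlap. Ccl19, a chemokine, shares 45.3% and rose by 6.94 ± 0.30.

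Other large rises were those of the following genes. Kcnc4, a fast potassium channel, was at 0.253 to 0.645 CPM against 12.4 to 21.7 CPM (5.46 ± 0.20), and Asic2, an acid-sensing channel, and Vsnl1, a calcium sensor, rose by 4.97 ± 0.23 and 4.87 ± 0.27. Rit2, a neuronal GTPase, rose by 5.71 ± 0.27. Among the large falls Eln, elastin, was at 234, 372, 211 and 181 CPM against 4.00, 6.56, 7.36, 6.83 and 12.7 CPM (-5.09 ± 0.26, adjusted p = 1.72e-12), and Fbln1, a matrix glycoprotein, and Angptl2 fell by 3.08 ± 0.16 and 3.31 ± 0.18. Mndal and Ifi203, interferon-inducible genes of 1 family, were at 34.5 to 90.4 and 27.9 to 105 CPM against 0 to 1.33 and 0.992 to 3.04 CPM, and share 11.1% and 5.71% of their windows with other genes. Grb10, an imprinted growth inhibitor, fell by 3.67 ± 0.16 and Srebf1, a regulator of lipid synthesis, by 3.65 ± 0.14. For all 12 of the largest rises chosen in this way DIV0 lay nearer the Math1 and the input nearer the Neurod1 libraries; for the 12 largest falls DIV0 lay nearer the Math1 libraries in 9, and Atoh1 and Srebf1 were among the exceptions.

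**Figure D4:**
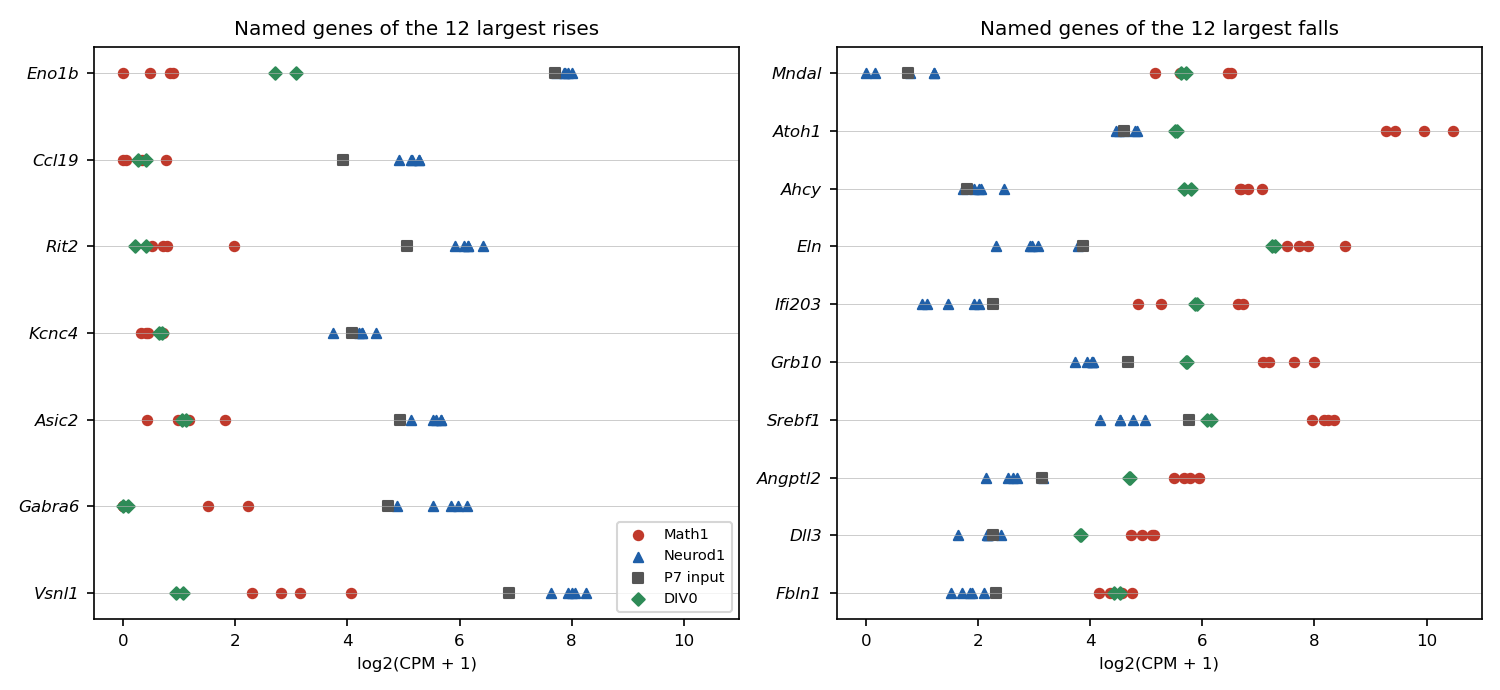
The genes named in the text from among the 12 largest rises and the 12 largest falls of at least 10 CPM in the higher group, provisional symbols left out, as log2(CPM + 1) in single libraries: Math1 (circles), Neurod1 (triangles), P7 input (square) and DIV0 (diamonds). The input lies nearer the Neurod1 libraries for every gene drawn, and DIV0 nearer the Math1 libraries for every gene drawn but Atoh1 and Srebf1.

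The culture series gave a second comparison of progenitors with differentiating granule cells, without a transgene or a pull-down. From DIV0 to DIV2 in DMSO 71.3% of 15978 genes were called, 36.4% higher and 35.0% lower. Of 5193 genes higher in the Neurod1 libraries and tested in both, 3261 (62.8%) were higher in culture and 722 (13.9%) lower, and of 5268 lower genes 3324 (63.1%) were lower and 866 (16.4%) higher. Seen from the culture, the shared genes were 59.7% of those higher and 62.6% of those lower. All 24 replication genes and 22 mitosis genes fell in both, with wider falls in culture (medians -2.10 and -3.36), and Gabra6, Slc12a5 and Grm5 rose in both. Kcnip1, a potassium channel partner, rose by 4.69 ± 0.23 between the pull-downs and changed by -0.40 in culture (adjusted p = 0.483), and Mndal and Ifi203 were lower in the Neurod1 libraries and higher in culture (0.31 and 1.12). In the input Kcnip1 stood at 50.8 CPM, above all 9 pull-downs.

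**Figure D5:**
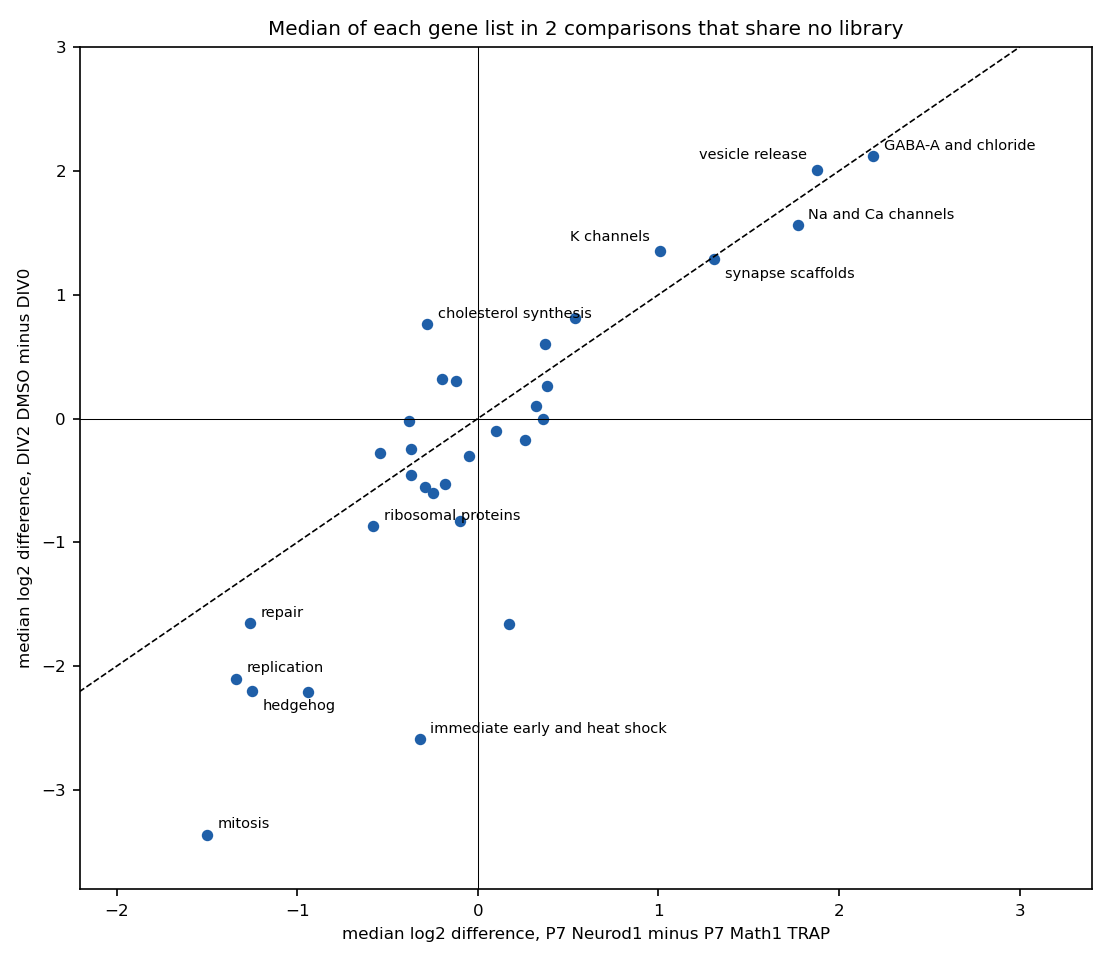
Median log2 difference of each gene list between the pull-downs (horizontal) and between DIV2 DMSO and DIV0 (vertical), 1 point per list, with the dashed line at equal values. Replication, mitosis and repair lists are below 0 on both axes, synaptic and channel lists above 0 on both, and the cholesterol synthesis list is below 0 between the pull-downs and above 0 in culture.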

How the data were processed

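RNA from EGFP-L10a pull-downs, total cerebellum and cultured granule cells was sequenced from poly(A)-selected libraries, per the labels' protocols. The authors deposited 1 table of estimated counts, whole numbers that were not normalized. Salmon 0.8.2 and mm10 stand in the submitters' processing notes without their roles, and the annotation is not given in the sources used here. Of 24100 gene identifiers 24045 matched a symbol in RefSeq (GRCm38.p6). Groups come from the sample titles.

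Genes were filtered with filterByExpr (minimum count 10, total 15), scaled by TMM and tested with edgeR 4.0.16 (quasi-likelihood, robust, R 4.3.3) in 1 fit of 19 TRAP libraries. Neurod1 libraries of P12 and P21 are among the 19 and enter the estimate of the spread. DIV2 DMSO against DIV0 was fitted on 8 culture libraries. Among these 8 are DIV5 libraries with DMSO and with the EZH2 and EZH1 inhibitor UNC1999. P-values were adjusted by Benjamini-Hochberg. Tested on simulated data, the main comparison recovered 93.3% of 2-fold and 98.2% of 4-fold changes. In that simulation 90 and 110 of 14382 genes were changed, all above 1 CPM, and libraries were independent. The data differ, with 72.4% of genes called and Math1 libraries in pairs, so these rates may not carry over. CPM were scaled over 30 libraries. Alternatives were library size scaling, DESeq2 1.42.0, no filter, a replicate block, the compared groups alone, each replicate left out and each Math1 pair alone. A gene listed at 0 was given a floor of 3 counts, which covers counting error only. Shared sequence was counted as 75-base windows found in GENCODE transcripts of more than 1 gene.

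The comparison, the gene lists and the tests were chosen with earlier results of these data known. Per list the text names up to 4 called genes of the commoner direction and 2 of the other by adjusted p, all members of some short lists, the 12 largest rises and falls of at least 10 CPM among called genes whose groups do not overlap and whose symbol is not provisional (Gm, Rik, LOC and the like), and 8 genes that differ most between Math1 pairs. The list members Bhlhe22, Neurod4, Neurod6, Nhlh1, Nhlh2, Tcf3, Tcf4, Tcf12, Id4, Notch1, Notch2, Dll1, Jag2, Hes1, Hes5, Wnt7a, Pax6, Zic1, Zic2, Zic4, Zic5 and Fos, and Xist and Ddx3y, were named after their values were seen. Some genes that this rule names are not reported here.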

Additional observations from a re-analysis of the deposited data

Results flagged for a closer look

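Within the 4 Math1 or the 5 Neurod1 libraries, 12 of 350 sets of values for genes named above had 1 library set apart from the others by a gap that was large against the range of the group. Chance alone flags about 1 in 20 such sets. Among the Math1 libraries, replicate 1 was the highest for Slc12a5 (7.76 CPM, the others 1.43 to 2.06), Rit2 (2.94 CPM, the others 0.422 to 0.72) and Kcnk3 (2.98 CPM, the others 0.793 to 1.16), and the lowest for Smo (133 CPM, the others 149 to 151). Replicate 2 was the lowest for Pclo (42.3 CPM, the others 44.3 to 44.5) and the highest for Slit3 (1.12 CPM, the others 0.323 to 0.449). Among the Neurod1 libraries, replicate 4 was the lowest for Grm4 (56.8 CPM, the others 122 to 130) and Kcnk3 (17.8 CPM, the others 28.4 to 31.4). Replicate 5 was the lowest for Cdkn2d (87.1 CPM, the others 111 to 115) and the highest for Gli2 (61.2 CPM, the others 50.0 to 52.5) and Neurod4 (14.6 CPM, the others 12.7 to 13.2), and replicate 2 the highest for Jag1 (1.55 CPM, the others 1.24 to 1.30). In each of these cases except Neurod4, which was not called, the 2 groups still did not overlap.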

How the results depend on the processing

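The 10682 genes called between the pull-downs became 10309 to 10562 with 1 library left out and 9875 to 11098 under the other alternatives, and the 11398 of the culture comparison 10132 to 11137 and 10236 to 11514. The 6585 genes called the same way in both comparisons fell to 1930 when at least 2-fold was required in each, a stricter rule by construction. Of 2800 values of named genes under alternatives, 2765 kept their side of the threshold, and those called also kept their direction. A change of sign in a gene called under neither setting was not counted. Of the rest, 24 lost a call, 7 gained one and 4 changed sign. The changes of sign were those of Egr1 (0.32), Fos (1.91) and Tob2 (0.02) against Math1 replicates 1 and 2 alone. Ctse (0.62) changed sign against 3 and 4 alone. Rpl10a was not called against Math1 replicates 1 and 2 (adjusted p = 0.315) nor Suz12 against 3 and 4 (0.183). The labels do not say whether equal replicate numbers pair the libraries. Deviations of same-numbered Math1 and Neurod1 libraries from their group means correlated at 0.14, -0.05, 0.18 and -0.06. Those of differently numbered libraries correlated at -0.19 to 0.18, so the values show no clear pairing and cannot exclude it. With the replicate number as a block 10624 genes were called between the pull-downs and 11226 in culture. Math1 replicates 3 and 4 had the lowest depth, at 15685879 and 12084136 counts, and a count of 0 there allows up to 0.194 and 0.253 CPM.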
